A study of Mus musculus with 10 samples.

Results

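The genes described here are 10 genes of iron storage, uptake, export and control, Ftl1, Fth1, Tfrc, Trf, Slc40a1, Slc11a2, Ireb2, Aco1, Hmox1 and Cp. They were chosen by symbol from the 18453 rows of the gene count tables, and all 10 were present and passed the filter on low counts, as did 14393 genes in all. RNA was sequenced from 10 libraries of CA3, the hippocampal field whose pyramidal neurons receive the mossy fibres, of C57BL/6J mice injected on both sides with adeno-associated virus. In 5 libraries the virus carried AAV-shRNA(mef2c), a short hairpin RNA against the transcription factor Mef2c, and in the other 5 it carried AAV-shRNA(scramble), a scrambled hairpin. All mice thus received a virus and a hairpin, there were no uninjected mice, and the labels give a male sex for every library although the injection protocol names both sexes. The age of the mice, the time after injection, the promoter driving the hairpin and whether each library is a separate animal are not given, so the p-values below measure the spread between these libraries. The genes were put forward with results of this same comparison known, so their fold changes and calls are given as a description and not as a test.

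Cells take up iron as transferrin bound to the transferrin receptor, move it out of the endosome through the transporter Slc11a2, store it in ferritin shells of heavy and light chains, and export it through ferroportin. The iron regulatory proteins, encoded by Aco1 and Ireb2, bind a hairpin in the messenger RNA, the iron-responsive element, when cell iron is low. Binding near the start of a messenger blocks its translation, as in ferritin, and binding after the coding sequence protects the messenger from decay, as in the transferrin receptor. In brain, transferrin is made mainly by oligodendrocytes and the choroid plexus, and ferritin is plentiful in microglia and oligodendrocytes.

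The hairpins that this control acts on could be read in 4 of the 10 genes, and they are shown because they set the ferritins and the receptor apart by position. The search took a C, 5 bases, the loop CAGTGN and 5 bases that pair with the first 5 (G with T allowed), on the sense strand of GENCODE M21 protein-coding transcripts (GRCm38). The 6 loop bases are in capitals.
Ftl1, 5′ untranslated region, chr7:45459785-45459801, minus strand: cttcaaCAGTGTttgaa
Fth1, 5′ untranslated region, chr19:9982738-9982754, plus strand: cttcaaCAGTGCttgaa
Slc40a1, 5′ untranslated region, chr1:45925471-45925487, minus strand: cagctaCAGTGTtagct
Tfrc, 3′ untranslated region, site a, chr16:32631225-32631241, plus strand: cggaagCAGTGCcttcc
Tfrc, site b, chr16:32631604-32631620: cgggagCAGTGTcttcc
Tfrc, site c, chr16:32631669-32631685: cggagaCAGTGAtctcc
Tfrc, site d, chr16:32631716-32631732: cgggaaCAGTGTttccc
The stems of both ferritin messengers were the same. Of 14360 tested genes with a protein-coding transcript, 27 (0.188%) held such a match before the coding sequence and 111 (0.773%) after it. The members were 3 of the 27 and 1 of the 111. A gene without a match lacks only these letters.

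Library totals were 15669620 to 17798090 counts with Mef2c shRNA and 14701928 to 15637076 with scramble. Mef2c itself stood at 111, 131, 121, 163 and 286 CPM (counts relative to library size, scaled by TMM) in Mef2c shRNA libraries 1 to 5, against 166, 198, 176, 312 and 175 CPM in scramble libraries 1 to 5. It was not called (log2 fold change -0.34, SE 0.30, edgeR adjusted p = 0.489). Mef2c shRNA libraries 1 to 4 lay below every scramble library, and the library labelled Mef2c shRNA 5 lay above 4 scramble libraries. That library and scramble library 4, with the highest Mef2c of each group, also had the highest cortical neuron scores, 0.61 and 0.41, against -0.34 to 0.13 in the other 8 libraries. Summed cortical markers were 397 to 538.5 CPM with Mef2c shRNA and 434 to 528 CPM with scramble, and the part of cortical tissue in the Mef2c level was not tested. All 8 CA3 pyramidal neuron markers were detected in every library, with summed levels of 250 to 364 CPM with Mef2c shRNA and 272 to 323 CPM with scramble. Markers of CA1 pyramidal neurons were present as well, at 591 to 704 CPM with Mef2c shRNA and 681 to 755 CPM with scramble. In the same order, CA2 markers had 120 to 204 and 137 to 167 CPM, and dentate granule cell markers 408 to 679 and 472 to 619 CPM. Those of choroid plexus had 196 to 4577 and 270.5 to 3229 CPM. Choroid plexus markers were high in Mef2c shRNA libraries 1 and 5 and in scramble libraries 1, 4 and 5. In such tissue RNA, fewer cells of a type and less RNA per cell cannot be told apart.

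The levels of the 10 genes in CA3 spanned a wide range. Per length, as TPM (counts divided by the length of the longest annotated transcript, scaled to the same total in every library), Fth1, the ferritin heavy chain with the iron-oxidising site, stood highest at 3348 ± 328 TPM with Mef2c shRNA and 2538 ± 338 TPM with scramble (SD, n = 5 each). It was rank 19 of 18421 genes in the scramble libraries. Ftl1, the light chain that helps the iron core form, followed at 325 ± 49.2 TPM with Mef2c shRNA and 232 ± 6.80 TPM with scramble. Tfrc, the transferrin receptor, came next at 77.9 ± 3.19 TPM and 86.2 ± 1.33 TPM. Below it came Slc11a2, the divalent metal transporter (46.8 ± 4.78 and 50.9 ± 2.06 TPM), and Ireb2, iron regulatory protein 2 (34.1 ± 3.73 and 46.0 ± 3.27 TPM). Aco1, which is cytosolic aconitase or iron regulatory protein 1 depending on its iron-sulphur cluster, stood at 28.1 ± 3.71 TPM with Mef2c shRNA and 33.7 ± 3.14 TPM with scramble.

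The secreted and exporting proteins and the heme enzyme lay lowest. Trf, transferrin, had 21.4 ± 8.35 TPM with Mef2c shRNA and 17.6 ± 3.37 TPM with scramble. Cp, the ferroxidase ceruloplasmin, had 13.6 ± 2.22 and 12.6 ± 1.63 TPM, and Slc40a1, ferroportin, had 8.17 ± 2.72 and 8.68 ± 2.05 TPM. Hmox1, the inducible heme oxygenase that frees iron from heme, had 11.8 ± 2.76 TPM with Mef2c shRNA and 7.52 ± 1.55 TPM with scramble. In the 5 scramble libraries the ranges of Fth1, Ftl1, Tfrc, Ireb2 and Aco1 did not overlap that of the next gene down, while neighbours Slc11a2 and Ireb2, Trf and Cp, Cp and Slc40a1, and Slc40a1 and Hmox1 overlapped. The Fth1 and Ftl1 levels carry limits of annotation and counting. The longest Fth1 transcript is 2062 bases, and by its APPRIS principal transcript of 1494 bases Fth1 reached 4087 ± 393 and 3097 ± 403 TPM. Transcript Fth1-201 is shorter still, at 929 bases beside 968 for Ftl1-201, and Fth1 levels were not computed with it. Of the 150-base windows of Ftl1, as long as a read, 46% also occurred in transcripts of 3 other genes, Ftl1-ps1, Ftl2-ps and Gm15590, against 0% for Fth1-201, so the Ftl1 count is uncertain where such reads were split or dropped.

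**Figure D1:**
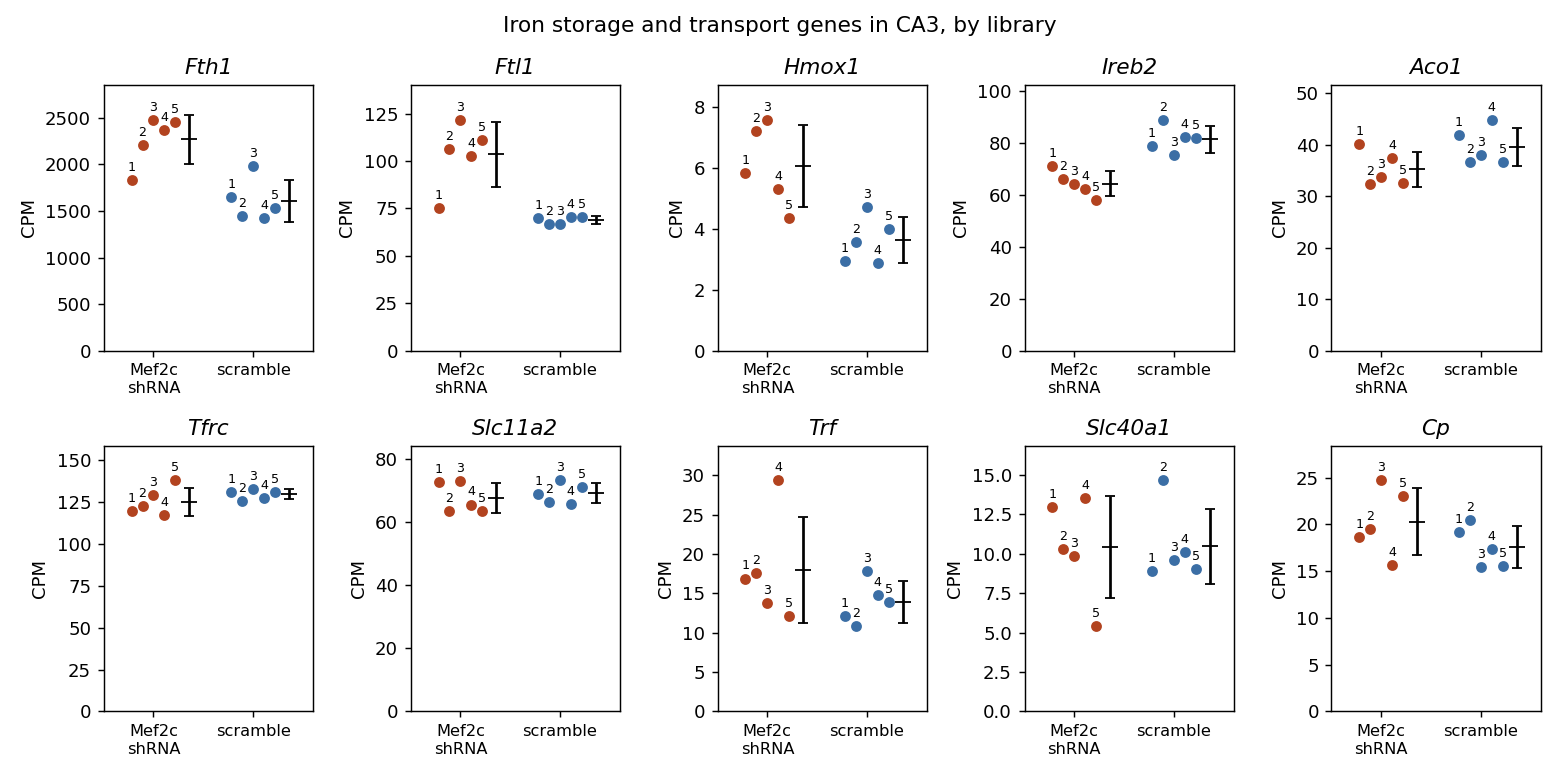
Levels of the 10 iron genes in CPM (linear axes from 0), one panel per gene, with Mef2c shRNA libraries in red and scramble libraries in blue. Numbers are the replicate numbers and the bar beside each group is the mean ± SD of 5 libraries; only Ftl1 and Ireb2 have groups that do not overlap.

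Of the 10 genes, edgeR called 3 higher (Ftl1, Fth1 and Hmox1) and 1 lower (Ireb2) with Mef2c shRNA at an adjusted p under 0.05, and 6 not. Of all genes tested, 12.3% were called, 4.66% higher and 7.61% lower. The median log2 fold change of the 10 was 0.10, beside 0.02 for all genes tested. As this comparison chose the genes, nothing is read from that count. With offsets that remove each library's trend along transcript length and GC content, a step that bears on short messengers such as ferritin, 1 of the 10 was called, beside 1.65% of all genes. It was Fth1, taken at its longest transcript of 2062 bases.

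Both ferritin chains were higher with Mef2c shRNA. Ftl1 stood at 75.2, 106, 122, 103 and 111 CPM in Mef2c shRNA libraries 1 to 5, against 69.8, 66.8, 67.0, 70.6 and 70.3 CPM in scramble libraries 1 to 5. All 5 Mef2c shRNA libraries lay above all scramble libraries, number 1 by little, and the spread in the scramble group was small (coefficient of variation 2.73%, against 16.8% with Mef2c shRNA). The mean was 1.5 times the scramble mean (log2 fold change 0.59, SE 0.10). Without the library labelled Mef2c shRNA 5 it was 0.56 (SE 0.106), and with the length and GC offsets it was 0.31 (SE 0.088), where the groups overlapped and Ftl1 was not called. Groups did not overlap upwards in 3.3% of all genes tested.

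Fth1 stood at 1834, 2204, 2480, 2367 and 2455 CPM in Mef2c shRNA libraries 1 to 5, against 1651, 1447, 1982, 1425 and 1536 CPM in scramble libraries 1 to 5. Mef2c shRNA library 1 lay below scramble library 3, and the other 4 lay above every scramble library. The mean ratio was 1.41 (log2 fold change 0.50, SE 0.10). It was 0.47 (SE 0.107) without the library labelled Mef2c shRNA 5 and 0.39 (SE 0.087) with the length and GC offsets. With the length of the principal transcript in the offsets, an alternative chosen after seeing the data, it was 0.33 (SE 0.077), and Fth1 was called in both of these fits. No fit used the 929 bases of Fth1-201, so the calls with offsets hold only for the longer lengths. The ratio of Fth1 to Ftl1 per length depends on the lengths taken, here 2062 bases for Fth1 and 968 for Ftl1. It was 11.4, 9.75, 9.56, 10.8 and 10.4 in Mef2c shRNA libraries 1 to 5 and 11.1, 10.2, 13.9, 9.47 and 10.3 in scramble libraries 1 to 5. These ratios overlapped between the groups, and scramble library 3 had the highest. Ftl1-ps1, an annotated copy of the light chain gene on chromosome 13, was also higher, at 2.46 ± 0.606 CPM with Mef2c shRNA and 1.25 ± 0.331 CPM with scramble (SD, n = 5 each); its reads and those of Ftl1 may not be separable.

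**Figure D2:**
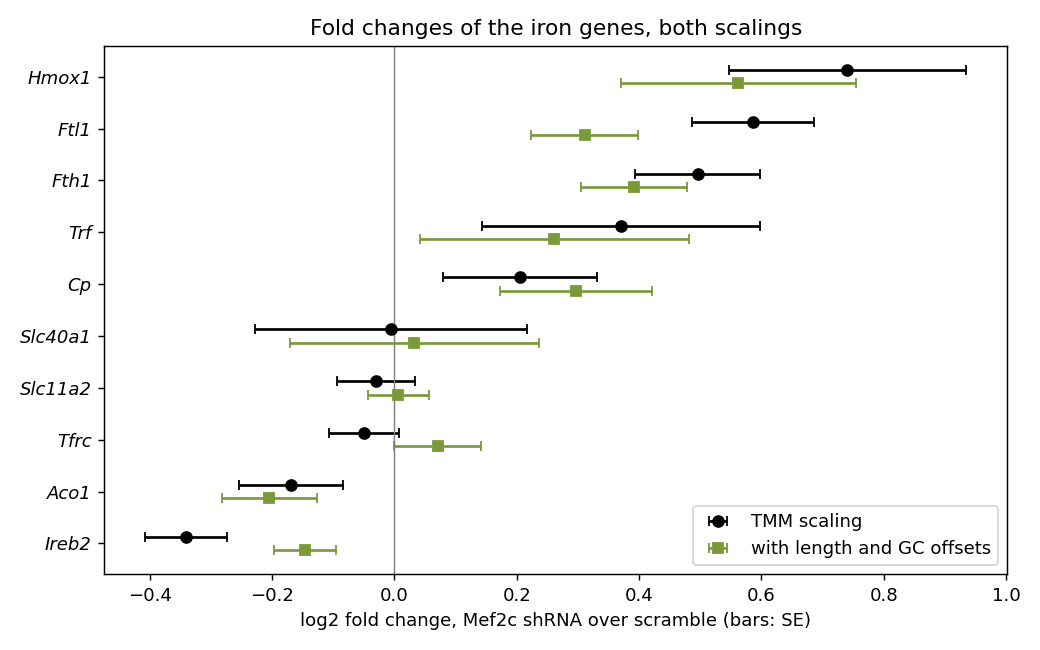
Log2 fold change of each iron gene, Mef2c shRNA over scramble, with its SE as the bar, under TMM scaling (black circles) and with offsets for transcript length and GC content (green squares). Ftl1 moves to 0.31 and Ireb2 to -0.15 with the offsets, Fth1 to 0.39, and the small values of Slc40a1, Slc11a2 and Tfrc change sign.

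Microglia markers and the length trend of the libraries moved with the ferritins in part. Of 14 microglia markers, 6 rose with Mef2c shRNA, among them Tmem119 (log2 fold change 0.75, SE 0.150, edgeR adjusted p = 0.0100) and C1qa (1.33, SE 0.334, edgeR adjusted p = 0.0377). With the length and GC offsets 0 of the 14 were called by edgeR (adjusted p = 0.0711 for Tmem119 and 0.156 for C1qa), and their median log2 fold change was 0.54, beside 0.61 without them. The summed marker level was 476 to 977 CPM with Mef2c shRNA and 403 to 581 CPM with scramble, and no marker was at 0 in any library. The microglia score (mean log2 CPM of the markers, each centred over the 10 libraries) was -0.02, 0.47, 0.75, 0.47 and -0.22 in Mef2c shRNA libraries 1 to 5, against -0.42, -0.30, 0.07, -0.46 and -0.34 in scramble libraries 1 to 5. Mef2c shRNA library 1 and the library labelled Mef2c shRNA 5 both had a score within the scramble range. Ftl1 and Fth1 lay 0.13 and 0.20 log2 units above the scramble mean in library 1, the lowest of the group, and 0.69 and 0.62 above it in the library labelled 5. In Mef2c shRNA library 3, with the highest score, these differences were 0.82 and 0.64. The part of microglia in the ferritin difference was not tested, and the fits with this score given below do not decide it.

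The slope of log2 CPM on log2 transcript length, fitted with GC content, was 0.05, -0.13, -0.07, -0.08 and -0.15 in Mef2c shRNA libraries 1 to 5, against 0.06, 0.09, 0.04, 0.10 and 0.10 in scramble libraries 1 to 5. Mef2c shRNA library 1 had a slope within the scramble range, and it was also the library of that group with the lowest Ftl1 and Fth1. The other 4 Mef2c shRNA libraries had slopes under all scramble libraries and Ftl1 0.58 to 0.82 units above the mean. In these 4 slope and group cannot be told apart, and the part of the length trend in the ferritin difference was not tested. With the microglia score as a covariate, the log2 fold change was 0.47 (SE 0.137) for Ftl1 and 0.34 (SE 0.126) for Fth1, neither called, in a fit that called 8 genes in all. Without Mef2c shRNA libraries 2, 3 and 4, those with the highest microglia scores, it was 0.43 (SE 0.122) for Ftl1 and 0.41 (SE 0.143) for Fth1. That fit called 0 of 14705 genes, and leaves 2 Mef2c shRNA libraries. Not being called in either fit therefore decides nothing. The mean score was itself higher with Mef2c shRNA, so these fits do not separate microglia from the group.

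**Figure D3:**
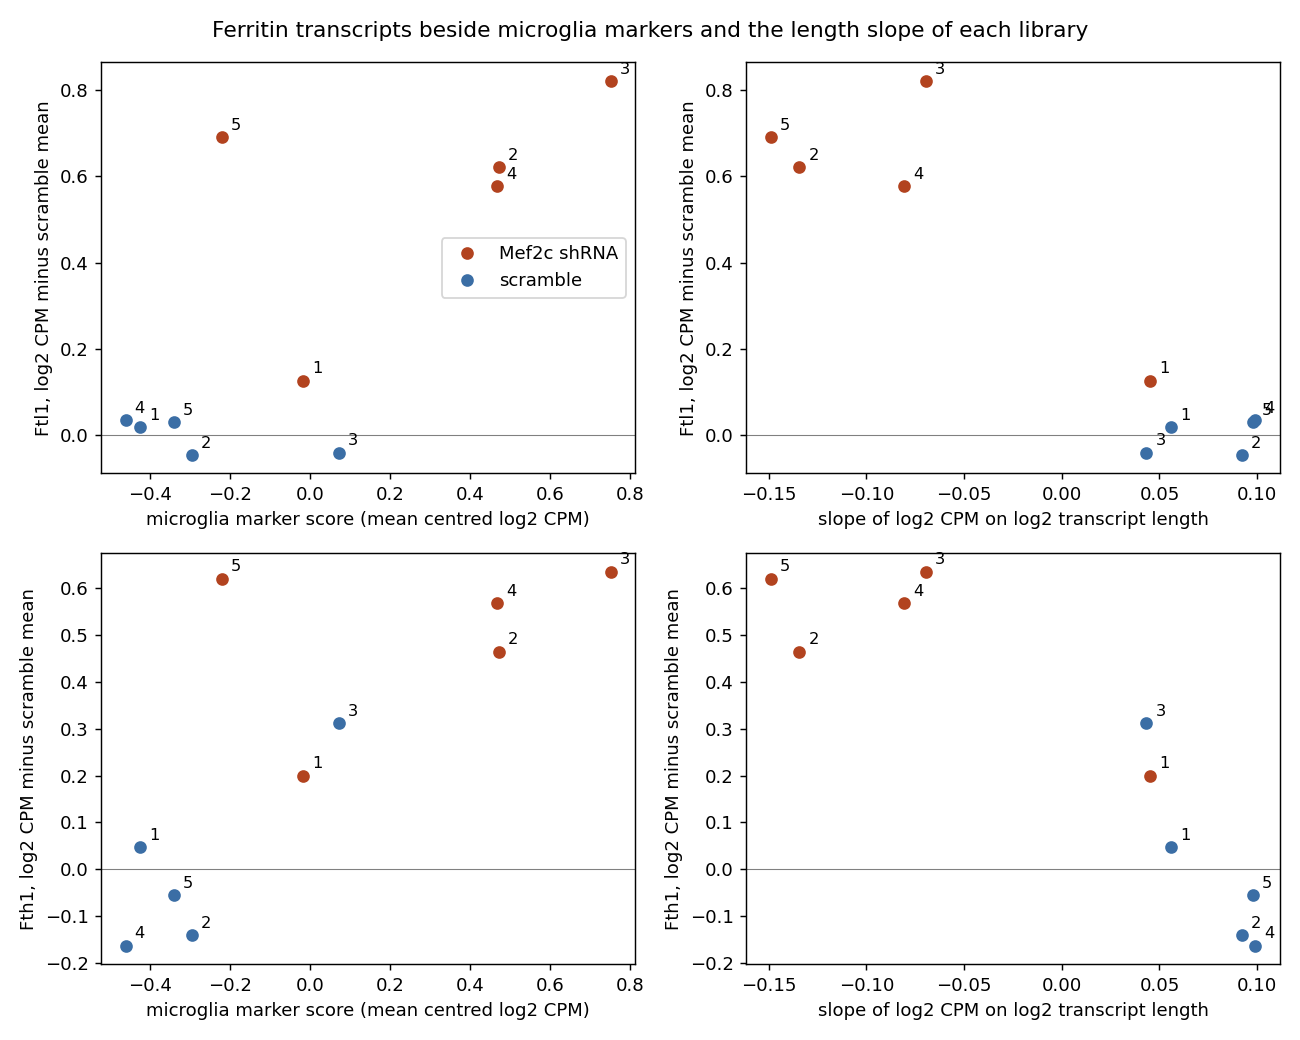
Ftl1 (top) and Fth1 (bottom) in each library, as log2 CPM minus the scramble mean, against the microglia marker score (left) and the slope of log2 CPM on log2 transcript length (right). Red points are Mef2c shRNA and blue points scramble libraries, with replicate numbers. At microglia scores within the scramble range, the library labelled Mef2c shRNA 5 (-0.22) is high in both genes. Mef2c shRNA library 1 (-0.02, slope 0.05), also within that range, lies near the scramble libraries. The parts of microglia and of the length trend in the ferritin difference were not tested.

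Hmox1 was low in CA3 and higher with Mef2c shRNA. It stood at 5.84, 7.22, 7.59, 5.30 and 4.35 CPM in Mef2c shRNA libraries 1 to 5, against 2.96, 3.58, 4.71, 2.88 and 3.99 CPM in scramble libraries 1 to 5. The library labelled Mef2c shRNA 5 was under scramble library 3, and the others exceeded all scramble libraries. The mean ratio was 1.67 (log2 fold change 0.74, SE 0.19). Without the library labelled Mef2c shRNA 5 it was 0.84 (SE 0.185). Hmox1 was called in 4 of 10 fits that each left out 1 library, with log2 fold changes of 0.64 to 0.86, and not with the length and GC offsets (0.56, SE 0.192). Within each group library 3 had both the highest Hmox1 and the highest microglia score. With that score as a covariate the log2 fold change was 0.28 (SE 0.218), in the fit with few calls given with the ferritins. Mef2c shRNA library 1, with a score of -0.02 within the scramble range, stood above every scramble library in Hmox1. The library labelled Mef2c shRNA 5, with a score of -0.22 in that range, did not. The part of microglia in the difference of Hmox1 was not tested.

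Markers of blood, which carries heme, also differed. Of 7 erythrocyte markers 5 were tested, and the 4 globin genes rose, with Hba-a1 at 54.5 ± 11.7 CPM with Mef2c shRNA and 32.6 ± 5.87 CPM with scramble (log2 fold change 0.74, SE 0.157, edgeR adjusted p = 0.0144). The erythroid Alas2 was not called (0.43, SE 0.279, edgeR adjusted p = 0.32), and Slc4a1 was at 0 in some libraries. The summed level was 96.7 to 153 CPM with Mef2c shRNA and 67.0 to 99.7 CPM with scramble. With the length and GC offsets 0 of the 5 were called. The part of blood RNA in the difference of Hmox1 was not tested.

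The score of macrophage and lymphocyte markers had a higher mean with Mef2c shRNA, with overlapping ranges, and its markers did not all rise. Of 9 such markers 7 were tested, and edgeR called 0, with 3 at an unadjusted p under 0.05 and a median log2 fold change of 1.76. Of all 14393 genes tested, 4327 had an unadjusted edgeR p under 0.05. Their score was -0.04, 1.32, 1.30, 0.76 and -0.53 in Mef2c shRNA libraries 1 to 5, against -1.04, -0.22, 0.48, -0.65 and -1.37 in scramble libraries 1 to 5. The summed level was 14.7 to 53.8 CPM with Mef2c shRNA and 11.8 to 27.1 CPM with scramble, and Lyve1 and Ly6c2 were at 0 in 1 library each. Among them Cd4 had a log2 fold change of 1.94 (SE 0.631, edgeR adjusted p = 0.064) and Ptprc, which microglia also express, of 1.04 (SE 0.456, edgeR adjusted p = 0.161), both named after their values were seen. Of the 7 tested, 5 had positive log2 fold changes, beside 7597 of all 14393 genes tested. The macrophage markers Cd163 (-0.02, SE 0.270) and Mrc1 (-0.32, SE 0.282), named likewise, did not. The part of these cells in the difference of Hmox1 was not tested.

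Of the regulators, Ireb2 was lower with Mef2c shRNA and Aco1 was not called. Ireb2, whose protein is degraded when iron is plentiful, stood at 71.2, 65.9, 64.0, 62.3 and 58.2 CPM in Mef2c shRNA libraries 1 to 5, against 78.8, 89.0, 75.2, 82.3 and 82.0 CPM in scramble libraries 1 to 5. Every Mef2c shRNA library lay below every scramble library, as in 6.04% of all genes tested. The mean ratio was 0.79 (log2 fold change -0.34, SE 0.067), or -0.30 (SE 0.065) without the library labelled Mef2c shRNA 5. Ireb2 has the longest transcript of the 10 genes, 5.77 kb, and with the length and GC offsets its log2 fold change was -0.15 (SE 0.051) and it was not called. Aco1 stood at 40.2, 32.3, 33.7, 37.4 and 32.6 CPM with Mef2c shRNA and at 42.0, 36.6, 38.0, 44.9 and 36.6 CPM with scramble, in library order 1 to 5. The groups overlapped, and Aco1 was not called with TMM scaling (-0.17, SE 0.085) or with the offsets (-0.20, SE 0.078). Fbxl5, the ubiquitin ligase subunit that senses iron and marks Ireb2 for degradation, was not called (log2 fold change -0.0034, SE 0.0651, edgeR adjusted p = 0.978) and was named after its value was seen.

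The uptake genes Tfrc and Slc11a2 were not called, and their direction changed with the scale. Tfrc stood at 120, 122, 129, 117 and 138 CPM in Mef2c shRNA libraries 1 to 5, against 131, 126, 133, 127 and 131 CPM in scramble libraries 1 to 5. The ranges overlapped, with the lowest and the highest values both in the Mef2c shRNA group. The log2 fold change was -0.05 (SE 0.058) in CPM and 0.07 (SE 0.071) with the offsets. As TPM all Mef2c shRNA libraries (73.8 to 81.0) lay under all scramble libraries (84.5 to 87.7). The share of all genes that separate this way as TPM was not computed, so nothing is read from it. Slc11a2 stood at 72.6, 63.3, 73.0, 65.5 and 63.5 CPM with Mef2c shRNA and at 68.8, 66.4, 73.1, 65.5 and 71.2 CPM with scramble, in library order. Its ranges overlapped in part, with a log2 fold change of -0.03 (SE 0.063) and 0.01 (SE 0.050) with the offsets. Without the library labelled Mef2c shRNA 5, the log2 fold changes were -0.08 (SE 0.054) for Tfrc, -0.01 (SE 0.065) for Slc11a2 and -0.14 (SE 0.087) for Aco1.

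Transferrin was highest in the libraries with the most oligodendrocyte RNA, and did not differ between the groups beyond their spread. Trf stood at 16.9, 17.6, 13.7, 29.4 and 12.1 CPM in Mef2c shRNA libraries 1 to 5, against 12.1, 10.8, 17.9, 14.7 and 13.9 CPM in scramble libraries 1 to 5. Mef2c shRNA library 4 stood above all others, and the groups overlapped. The oligodendrocyte score was -0.04, -0.05, 0.04, 0.69 and -0.52 in Mef2c shRNA libraries 1 to 5, against -0.13, -0.13, 0.37, -0.05 and -0.17 in scramble libraries 1 to 5. Mef2c shRNA library 4 and scramble library 3 had the highest score and the highest Trf within their groups. The summed level of the 12 markers was 5004 to 9995 CPM with Mef2c shRNA and 5278 to 7892 CPM with scramble, none was at 0, and 0 of 12 were called. The log2 fold change of Trf was 0.37 (SE 0.227), 0.28 (SE 0.113) with the oligodendrocyte score as a covariate and 0.12 (SE 0.156) without Mef2c shRNA library 4. It was 0.49 (SE 0.218) without the library labelled Mef2c shRNA 5, and Trf was not called in any of these fits.

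**Figure D4:**
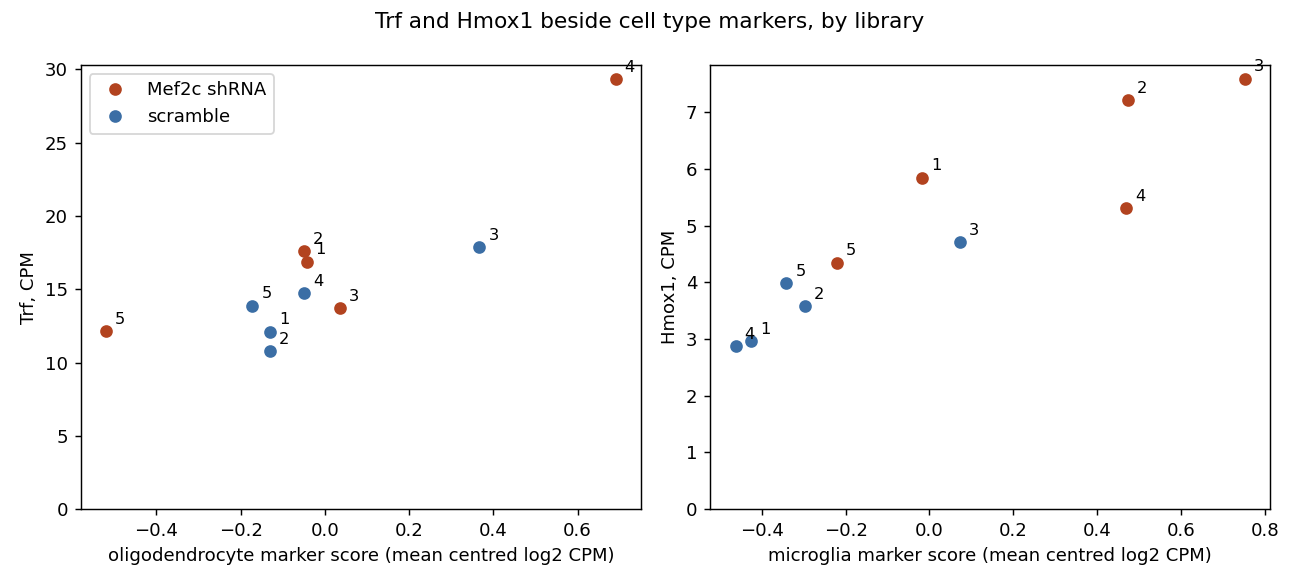
Trf against the oligodendrocyte marker score (left) and Hmox1 against the microglia marker score (right), in CPM on linear axes from 0, with Mef2c shRNA libraries in red, scramble libraries in blue and replicate numbers beside the points. Mef2c shRNA library 4 has both the highest oligodendrocyte score (0.69) and the highest Trf (29.4 CPM). Mef2c shRNA library 3 has both the highest microglia score (0.75) and the highest Hmox1 (7.59 CPM). The part of microglia in the difference of Hmox1 was not tested.

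The export genes did not differ beyond the spread of the libraries. Slc40a1, the only known cellular iron exporter, stood at 12.97, 10.3, 9.85, 13.5 and 5.44 CPM in Mef2c shRNA libraries 1 to 5, against 8.88, 14.6, 9.61, 10.1 and 9.01 CPM in scramble libraries 1 to 5. The library labelled Mef2c shRNA 5 was the lowest of all and scramble library 2 the highest. The log2 fold change was -0.01 (SE 0.222), 0.16 (SE 0.158) without the library labelled Mef2c shRNA 5 and 0.15 (SE 0.216) without scramble library 2, so its sign rests on single libraries. Cp, which oxidises iron leaving the cell and is made by astrocytes, stood at 18.6, 19.5, 24.7, 15.7 and 23.1 CPM with Mef2c shRNA and at 19.2, 20.5, 15.5, 17.4 and 15.5 CPM with scramble, in library order. The ranges overlapped (log2 fold change 0.21, SE 0.126, or 0.16, SE 0.128, without the library labelled Mef2c shRNA 5). Astrocyte markers had summed levels of 4892 to 6284 CPM and 5554 to 6226 CPM.

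The 10 genes did not vary as one block. With each group centred on its own mean, Pearson correlations of log2 CPM over the 10 libraries lay between -0.91 (Trf with Cp; Spearman -0.84) and 0.74 (Slc40a1 with Ireb2; Spearman 0.70), given as a description over libraries that share groups. Ftl1 and Fth1 had 0.60 (Spearman 0.39), and Fth1 and Ireb2 had -0.85 (Spearman -0.83). Of 10191 other genes averaging 10 CPM or more, those most like Ftl1 by this measure were Avpi1 (0.94), Yrdc (0.94) and Parl (0.93). The closest to Fth1 were the ribosomal protein genes Rps9 (0.93) and Rpl28 (0.92) and the calcium-binding S100a1 (0.92), with transcripts of 1.35, 1.11 and 0.677 kb. The closest to Trf were Efhd1 (0.99), Fdxr (0.96), which encodes the ferredoxin reductase of iron-sulphur cluster assembly, and Qdpr (0.95). The closest to Tfrc were Itm2c (0.96), Gm16286 (0.95) and Rpusd1 (0.95).

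Beyond these 10, 102 genes of iron metabolism were listed in 8 groups, of which 93 were tested. Of the 93, 12 rose and 1 fell with Mef2c shRNA, beside 4.66% higher and 7.61% lower of all genes, and 80 were not called. Their median log2 fold change was 0.11, beside 0.02 for all genes. Of the 12 that rose, 11 had log2 fold changes of 0.21 to 0.63 and 1 was above 1. Leaving out 1 library gave between 3 called genes (without scramble library 2 or 5) and 28 (without Mef2c shRNA library 1), and without the library labelled Mef2c shRNA 5 it was 12. It was 5 without Mef2c shRNA library 2 or 4 or scramble library 1, and 6 without scramble library 4. With the length and GC offsets 2 were called, neither of them among the 13, and the median was 0.06, beside 0.00456 for all genes. The median of the export and hepcidin list was -0.13 without the offsets and 0.04 with them, and that of the uptake list was 0.03 without and 0.10 with them.

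In the uptake group, 1 of 11 tested genes rose. Slc11a1, the metal transporter of phagosomes in macrophages and microglia, stood at 7.69 ± 4.13 CPM with Mef2c shRNA and 3.17 ± 1.04 CPM with scramble (log2 fold change 1.27, SE 0.338, edgeR adjusted p = 0.0328, SD over n = 5 each). With the microglia score as a covariate its log2 fold change was 0.18 (SE 0.236), and without Mef2c shRNA libraries 2, 3 and 4 it was 0.51 (SE 0.296), neither called. As given with the ferritins, these fits called few genes or none of all tested, so not being called there decides nothing. Lcn2, a siderophore-binding secreted protein, had a larger log2 fold change (2.78, SE 0.908) that did not pass (edgeR adjusted p = 0.0774), at 0.71, 9.05, 6.02, 2.91 and 5.25 CPM with Mef2c shRNA and 1.82, 0.13, 1.39, 0.13 and 0 CPM with scramble in library order. Lcn2 was named after its value was seen. The score of macrophage and lymphocyte markers, given with Hmox1, was also highest in Mef2c shRNA libraries 2, 3 and 4. Among the storage genes and iron chaperones, 1 of 6 tested rose, Pcbp1, which delivers iron to ferritin (192 ± 13.5 CPM with Mef2c shRNA and 157 ± 9.19 CPM with scramble, log2 fold change 0.29, SE 0.064, edgeR adjusted p = 0.0126). Ncoa4, the receptor that carries ferritin to the lysosome, was not called (-0.13, SE 0.0781, edgeR adjusted p = 0.299) and was also named after its value was seen. In the export and hepcidin group 0 of 4 tested genes were called by edgeR. An unadjusted p under 0.05 was reached by 1 of them, beside 4327 of all 14393 genes tested. Neo1, a co-receptor of that pathway, had the smallest p (-0.19, SE 0.073, edgeR adjusted p = 0.0992), followed by Bmp6 (-0.17, SE 0.216, edgeR adjusted p = 0.629). Neither direction held throughout: Neo1 was at 0.06 (SE 0.052) with the length and GC offsets, and Bmp6 at 0.43 (SE 0.188) with the microglia covariate and 0.24 (SE 0.209) without Mef2c shRNA libraries 2, 3 and 4. Hamp, the hepcidin gene, was at or near 0 counts and not tested.

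Of 29 genes of mitochondrial iron and iron-sulphur cluster assembly, 5 rose and 0 fell, with a median log2 fold change of 0.16. With the length and GC offsets that median was 0.05 and 1 gene was called. Slc25a28, the mitochondrial iron importer mitoferrin-2, stood at 49.9 ± 6.78 CPM with Mef2c shRNA and 37.4 ± 3.62 CPM with scramble (log2 fold change 0.42, SE 0.097, edgeR adjusted p = 0.0163). The cluster scaffold Iscu (0.34, SE 0.097), the assembly factor Isca2 (0.33, SE 0.095) and the cytosolic cluster protein gene Narfl (0.32, SE 0.091) rose as well, with edgeR adjusted p values of 0.0364, 0.0381 and 0.0385. Of 9 heme synthesis genes 1 rose, Urod, the uroporphyrinogen decarboxylase, at 36.6 ± 3.13 CPM with Mef2c shRNA and 28.7 ± 2.17 CPM with scramble (0.35, SE 0.080, edgeR adjusted p = 0.0149). With the offsets the genes called were Mms19 of cytosolic cluster delivery (0.44, SE 0.0809, edgeR adjusted p = 0.0219, against 0.16 without them) and Fech, the ferrochelatase that inserts iron into heme (0.27, SE 0.0626, edgeR adjusted p = 0.0447, against 0.04 without them). Both were named after their values were seen.

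Of 10 tested genes of heme breakdown and transport, 2 rose and 1 fell. Blvrb, a biliverdin reductase that acts after heme oxygenase, stood at 7.995 ± 1.06 CPM with Mef2c shRNA and 5.15 ± 0.484 CPM with scramble (log2 fold change 0.63, SE 0.135, edgeR adjusted p = 0.0113). All 5 Mef2c shRNA libraries exceeded all scramble libraries, as in 3.3% of all genes tested. Slc48a1, a heme transporter of the lysosome, rose by 0.32 (SE 0.081, edgeR adjusted p = 0.0256). Flvcr1, a transporter first described as a heme exporter, fell to 14.2 ± 2.00 CPM with Mef2c shRNA, against 18.8 ± 2.18 CPM with scramble (-0.40, SE 0.116, edgeR adjusted p = 0.0381). Of 15 genes of the NRF2 axis, a transcription factor that induces ferritin and Hmox1 under oxidative stress, 1 rose, Taldo1 of the pentose phosphate pathway (0.26, SE 0.078, edgeR adjusted p = 0.0438). Of the 15, 12 had a positive log2 fold change, beside 7597 of all 14393 genes tested. An unadjusted edgeR p under 0.05 was reached by 5 of the 15, beside 4327 of the 14393. The list median was 0.11, or 0.06 with the length and GC offsets, beside 0.02 and 0.00456 for all genes. The part of NRF2 in the differences of the ferritins and Hmox1 was not tested. Of 9 genes of lipid peroxide defence and ferroptosis 1 rose, Slc3a2, a subunit of the cystine transporter (0.21, SE 0.054, edgeR adjusted p = 0.0268).

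**Figure D5:**
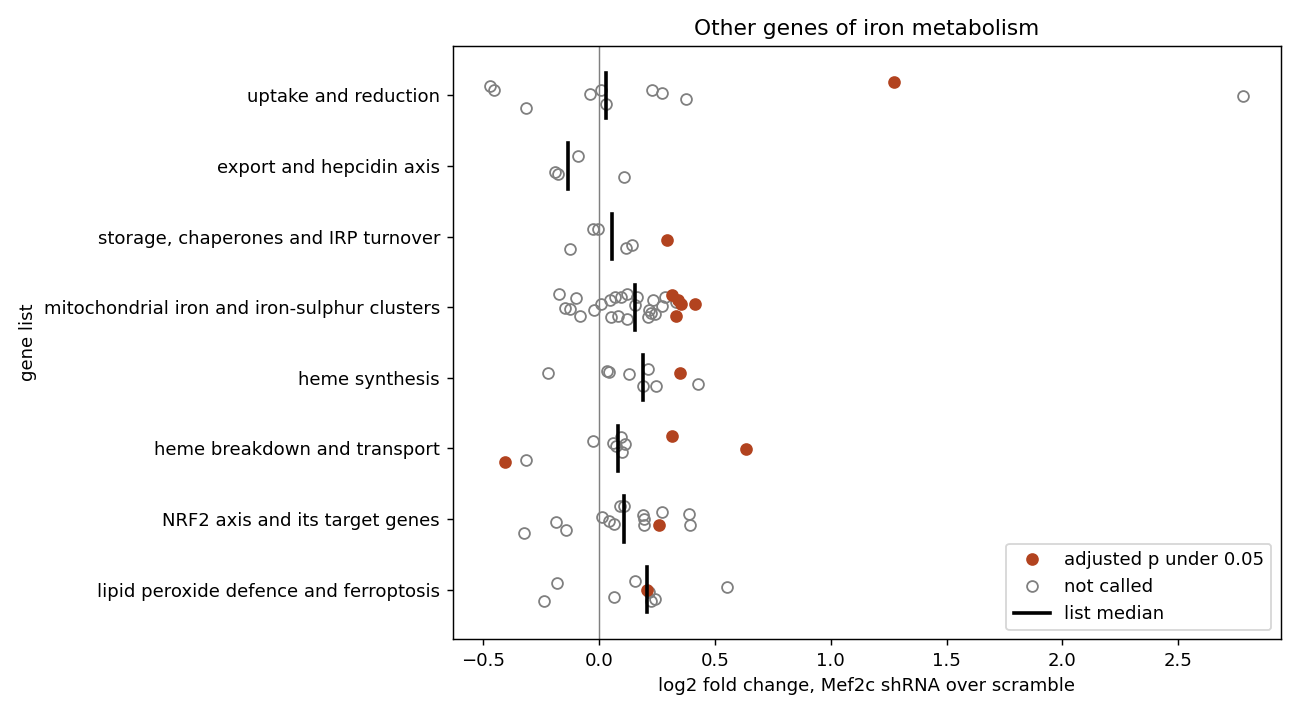
Log2 fold change, Mef2c shRNA over scramble, of 93 tested genes of iron metabolism outside the 10, by list. Red points passed an edgeR adjusted p of 0.05, open points did not, and black bars are list medians; the medians lie between -0.13 (export and hepcidin axis) and 0.21 (lipid peroxide defence and ferroptosis).

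Among the 27 genes with the hairpin before the coding sequence, the 24 outside the 10 included 1 called higher and 2 called lower. Of all genes tested, 4.66% were called higher and 7.61% lower. The median log2 fold change of the 24 was 0.05, beside 0.02 for all genes. The 1 called higher was Ftl1-ps1, whose reads may not be separable from those of Ftl1. Translation, on which this hairpin acts, was not measured. Of the 3 of the 10 with this hairpin, Ftl1 and Fth1 were at 0.59 and 0.50 and Slc40a1 at -0.01.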

How the data were processed

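Per the labels' protocols, libraries were prepared from polyadenylated RNA and sequenced as read pairs of 150 bases. Per the submitters' processing notes, HISAT2 and featureCounts were used with build mm10; for versions, settings, strandedness and annotation the entry is "not given in the sources used here". Each deposited table holds raw counts for each gene, judged by its whole-number values, and has no unnamed rows. Titles gave the group and replicate number of each library, since the treatment tag of Mef2c shRNA library 1 is misspelt. Of 18453 identifiers, 18421 were named by GENCODE M21 (GRCm38). Pairs of libraries of one group differed by more than sampling noise (chi-square over its degrees of freedom 3.74 to 37.4).

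Counts were filtered with filterByExpr, scaled by TMM and compared by quasi-likelihood tests with robust dispersion in edgeR 4.0.16 (R 4.3.3), with Benjamini-Hochberg adjustment over 14393 genes. The SE is the log2 fold change divided by the square root of F. Log2 CPM used a prior count of 2. Offsets were natural splines (5 degrees of freedom each) of log2 length and GC content fitted per library. DESeq2 1.42.0, limma 3.58.1 and other alternatives are in the closing section. On simulated counts of the Mef2c shRNA against scramble comparison (14296 genes), 60% of the genes set to a 1.5-fold difference and 83% of those set to 2-fold were recovered by edgeR, with 5 false calls. The simulated libraries had no length or GC trend and no shift in cell types. These values therefore do not give the share of false calls in the real libraries. Microglia, oligodendrocyte and cortical covariates, the offsets and the left-out libraries were fixed with the lists; the members, lists and alternatives were all chosen with earlier results of these data known. Genes named beside the 10 were, in each list, up to 4 called genes with the smallest p, or the 2 with the smallest p where none was called, and 3 genes most like Ftl1, Fth1, Trf and Tfrc; others are marked. Ftmt was not analysed here. Errors are the spread between libraries, and all 10 genes had at least 43 counts in every library.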

Additional observations from a re-analysis of the deposited data

Results flagged for a closer look

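Of 20 groups examined (10 genes in each of the 2 groups), 1 held a library far from the rest: Slc40a1 stood at 14.6 CPM in scramble library 2, and its gap to the next library was 0.785 of the range of the group, above the critical value of 0.71. Chance gives such a gap in about 1 in 20 groups. No reason was tested.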

How the results depend on the processing

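With edgeR and TMM scaling 1766 genes, 13 iron pathway genes and 4 of the 10 were called. Among the 10 genes and the iron pathway genes named by rule, no log2 fold change that was called reversed under any alternative run. Other called genes were not all followed. The astrocyte marker Slc1a2, called lower (-0.33, SE 0.073), was at 0.07 (SE 0.0522) with the length and GC offsets. Of all genes, 238 were called with the length and GC offsets, 205 with the replicate block and offsets, 328 with offsets from the principal transcript (chosen after seeing the data), 3402 with limma-voom, 2721 with the cortical neuron covariate, 8 with the microglia covariate, 0 without Mef2c shRNA libraries 2, 3 and 4, and 1029 without scramble library 4 and the library labelled Mef2c shRNA 5. DESeq2 called 2555 and the replicate block 1313. In the same fits the iron pathway genes called were 2, 2, 2, 27, 20, 0, 0 and 7, then 21 with DESeq2 and 7 with the replicate block. Of the 10 genes, 1 was called in each of the 3 fits with offsets and 0 with the microglia covariate and without Mef2c shRNA libraries 2, 3 and 4. Leaving out 1 library gave 631 (without scramble library 2) to 3305 (without Mef2c shRNA library 1) genes, 3 to 28 iron pathway genes and 3 to 4 of the 10. Hmox1 was the one lost, without Mef2c shRNA library 2 or 3 or scramble library 1, 2, 4 or 5. The cause of these differences was not tested, though the fits with fewer libraries or a covariate have fewer degrees of freedom. Deviations of same-numbered libraries correlated at 0.239, 0.185, 0.403, -0.114 and 0.0795. Differently numbered libraries were not correlated in the same way, so whether replicate numbers pair the libraries was not tested. Depth limits Hmox1 most, with 43 counts in its lowest library.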
